A study of Rattus norvegicus with 24 samples.

Results

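Transcripts were followed in the rat nucleus accumbens (NAc), the striatal region that receives mesolimbic dopamine input, after repeated inflammatory challenge and after heroin. The genes came from families that include the enzymes writing and erasing acetyl and methyl groups on histones and methyl groups on DNA. Membership went by symbol, so the mitochondrial Sirt3 and Sirt5 and the mainly cytoplasmic Hdac6 were also members. Members were the protein coding genes with the symbols of 8 families: Hdac, Sirt, Kat, Kmt, Setd, Kdm, Dnmt and Tet followed by a number. This rule found 63 genes with 61 symbols among the 32545 genes listed, because Hdac6 and Kdm4d are each listed under 2 gene identifiers. They were 11 Hdac, 7 Sirt, 7 Kat, 4 Kmt, 8 Setd, 19 Kdm, 4 Dnmt and 3 Tet genes. Symbols were taken as the table spells them, so that the monomethyltransferase also called Kmt5a appears as Setd8, and Hdac1 and Kmt2d were not analysed here.

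All rats were adult male Sprague Dawley animals, and the tissue held both core and shell of the NAc. In the injection experiment, rats received 5 intraperitoneal injections of lipopolysaccharide (LPS, the bacterial cell wall component that activates innate immunity) at 250 µg/kg or of saline, over a period that the labels give as 2 weeks. After an interval of about a week by the labels, and a shorter one by the study's methods, they received saline or heroin rising from 1 to 5 mg/kg intraperitoneally over 5 days. By the labels they were euthanised 1 hour after the last injection. By the study's methods all of them were first placed briefly in a locomotor activity chamber and were euthanised within 1 hour of that test. The first word of a group name gives the pretreatment and the second the later drug, so that Saline-Saline rats had neither agent, LPS-Saline and Saline-Heroin rats had 1 each, and LPS-Heroin rats had both. In the self-administration (SA) experiment, rats with jugular catheters took heroin at 0.075 mg/kg per infusion (Heroin-SA) or saline (Saline-SA) for 6 hours a day over 10 sessions, and tissue was taken directly after the last one; these rats received no LPS. The SA rats lived singly on a reversed light cycle, and the injected rats in pairs on a normal cycle. Experiment, surgery, housing, light cycle, locomotor test, time to euthanasia and drug route therefore cannot be told apart. Each group had 4 libraries of polyadenylated RNA, labelled as biological replicates.

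Libraries held between 12312878 and 18850240 reads on genes. Reads of mitochondrial genes took 6.82 to 9.10% of the injection libraries and 10.0 to 15.9% of the SA libraries, with Saline-SA replicates 3 (15.9%) and 4 (14.1%) at the top. Medium spiny neuron markers were present in every library, with a mean level of 6.03 to 7.21 on the log2(FPKM + 0.1) scale over 12 genes. FPKM are fragment counts divided by gene model length and by library size. Between 0.343 and 0.412% of a library's reads fell on the 63 members. Because whole tissue was sequenced, fewer cells of a type and less RNA per cell cannot be told apart in any of the differences below.

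Acetyl groups on histone tails loosen chromatin and are placed by lysine acetyltransferases (Kat genes) and removed by zinc-dependent histone deacetylases (Hdac genes) and NAD-dependent sirtuins (Sirt genes). Methyl groups on histone lysines are placed by the Kmt and Setd enzymes and removed by the Kdm demethylases, and depending on the lysine they mark active or silent genes. Dnmt enzymes methylate cytosine in CpG pairs and Tet enzymes oxidise that mark. In the striatum, several of these enzymes, class IIa deacetylases among them, are known for their part in lasting responses to drugs of abuse.

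Promoter windows of 4 members are shown because these transcripts carry the differences described below: Kdm7a, the member that met the call rule in both experiments, and Hdac9, Kdm2a and Dnmt3a, which differed between the experiments. Each window runs from 250 bases before to 50 bases after the most upstream start that RefSeq lists on build GRCr8, reads 5′ to 3′ on the gene's strand, and has its CpG pairs in capitals. The positions are chr4:68992930-68993229 on the minus strand for Kdm7a (1 of 4 listed starts), chr6:57052522-57052821 minus for Hdac9, chr1:211110166-211110465 minus for Kdm2a and chr6:32598352-32598651 plus for Dnmt3a.
Kdm7a: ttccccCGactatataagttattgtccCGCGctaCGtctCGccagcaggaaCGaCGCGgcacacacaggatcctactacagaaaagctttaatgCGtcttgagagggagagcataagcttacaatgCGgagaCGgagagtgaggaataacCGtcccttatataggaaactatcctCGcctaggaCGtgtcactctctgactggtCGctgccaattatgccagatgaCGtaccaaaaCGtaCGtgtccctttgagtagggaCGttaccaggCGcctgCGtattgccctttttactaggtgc
Hdac9: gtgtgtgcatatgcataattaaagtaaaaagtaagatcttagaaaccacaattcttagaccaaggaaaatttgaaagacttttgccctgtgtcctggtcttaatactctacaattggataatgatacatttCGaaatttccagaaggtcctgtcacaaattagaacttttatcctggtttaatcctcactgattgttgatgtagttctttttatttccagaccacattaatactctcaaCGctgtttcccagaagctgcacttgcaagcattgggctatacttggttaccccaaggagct
Kdm2a: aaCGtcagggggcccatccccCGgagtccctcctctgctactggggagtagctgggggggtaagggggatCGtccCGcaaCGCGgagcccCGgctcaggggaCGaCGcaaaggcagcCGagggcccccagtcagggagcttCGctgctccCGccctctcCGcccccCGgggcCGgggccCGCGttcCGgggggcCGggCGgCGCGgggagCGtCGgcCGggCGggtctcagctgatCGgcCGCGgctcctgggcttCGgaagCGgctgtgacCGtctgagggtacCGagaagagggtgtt
Dnmt3a: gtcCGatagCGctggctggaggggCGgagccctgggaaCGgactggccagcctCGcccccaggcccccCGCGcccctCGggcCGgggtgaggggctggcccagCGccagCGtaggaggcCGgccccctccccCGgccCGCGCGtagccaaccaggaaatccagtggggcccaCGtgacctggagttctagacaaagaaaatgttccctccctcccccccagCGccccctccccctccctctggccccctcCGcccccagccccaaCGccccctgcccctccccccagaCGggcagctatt

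The Kdm2a window held 33 CpG pairs and the Kdm7a and Dnmt3a windows 21 each, whereas the Hdac9 window held 2. The ratio of observed to expected CpG was 1.08 for Kdm7a, 0.80 for Kdm2a, 0.53 for Dnmt3a and 0.20 for Hdac9. Windows were listed for 50 of the 61 member symbols, with a median ratio of 0.80 and a median GC content of 61.3%, against 0.42 and 52.3% over the windows of 27455 genes. A ratio of at least 0.6 was found in 42 of the 50 member windows (84.0%) and in 36.8% of all windows, so the members as a set had CpG-rich promoters and Hdac9 was among those that did not. The letters TGACG, the core of the cAMP response element, occurred on either strand in 19 member windows (38.0%, against 22.0% of all), those of Kdm7a and Kdm2a included. The palindrome CACGTG occurred in 8 (16%, against 6.64%), that of Dnmt3a included. Both strings hold a CpG pair, and the median number of CpG pairs was 20 in member windows and 7 in all windows. The shares of these strings were not compared at equal CpG content.

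Levels of the enzymes spanned a wide range. Of the 63 members, 33 had a mean of at least 10 FPKM over the 24 libraries, 24 lay between 1 and 10 FPKM and 6 were under 1 FPKM. Each of 53 members had at least 100 reads in every library. The plot of group means by family shows the levels of each gene in the 6 groups; Kdm7a, Setd7 and Hdac9 had SA means set apart from the rest.

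**Figure D1:**
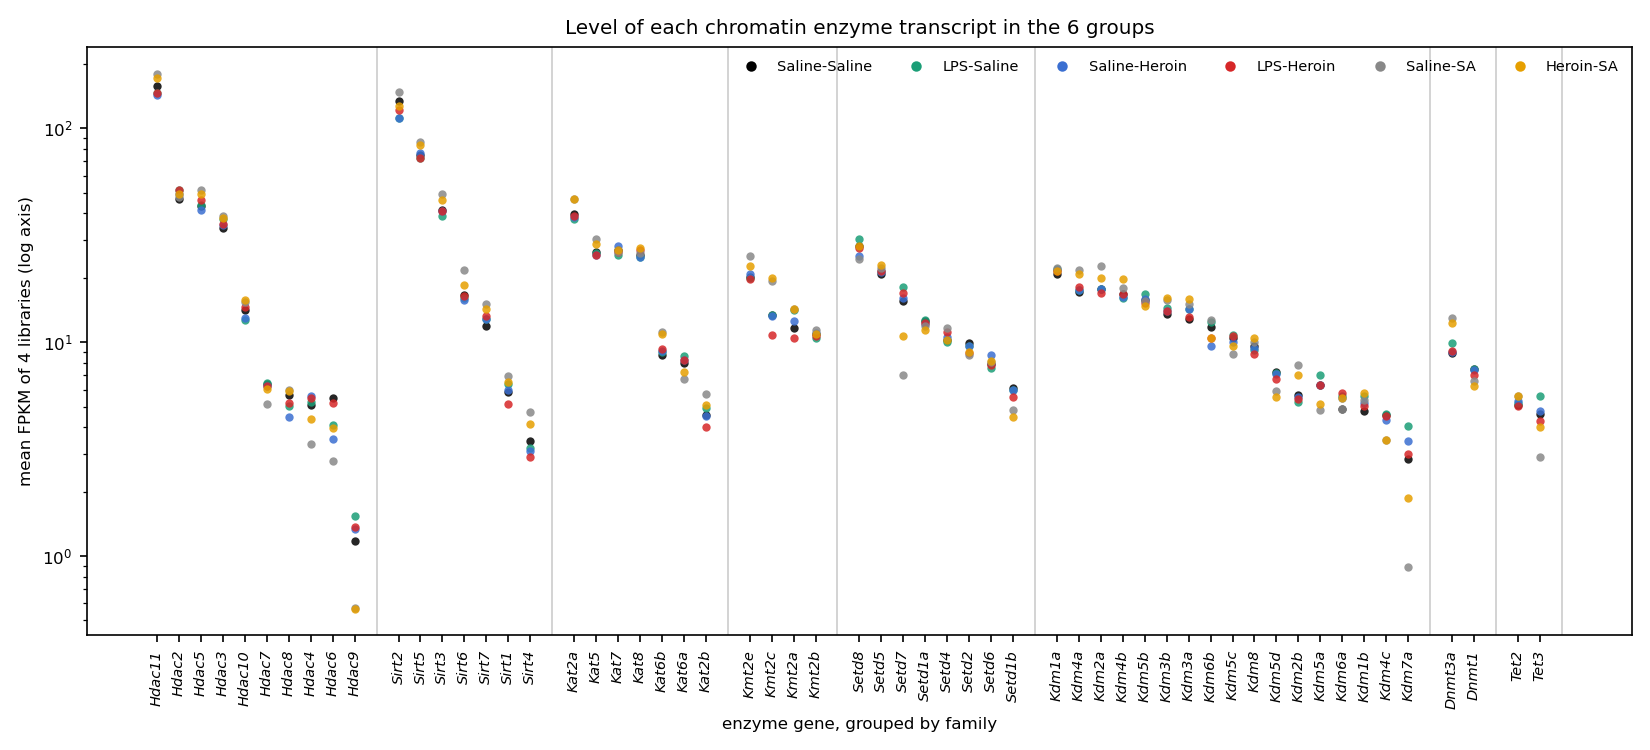
Mean FPKM of 4 libraries (log axis) for each of the 57 enzyme genes with a mean of at least 0.5 FPKM over 24 libraries, ordered by level within each family, with 1 point per group. The 6 points of most genes lie close together, and the Saline-SA (grey) and Heroin-SA (orange) points of Hdac9, Setd7 and Kdm7a lie below the 4 injection groups.

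Among the deacetylases, Hdac11 (class IV) had the highest level of all members, at a mean of 158 FPKM and a range of 130 to 206 FPKM over the 24 libraries. The class I enzymes Hdac2 and Hdac3, which act in corepressor complexes, followed at 49.4 and 36.6 FPKM, and the class IIa enzyme Hdac5, which shuttles between nucleus and cytoplasm with neuronal activity, at 45.9 FPKM. Hdac4 (4.86 FPKM) and Hdac9 (1.09 FPKM) of the same class were much lower. Ranges of Hdac2 (43.0 to 57.0 FPKM) and Hdac5 (36.6 to 58.1 FPKM) overlapped, so these neighbours in the order did not separate.

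Sirt2, a deacetylase that is abundant in oligodendrocytes, was the highest sirtuin at a mean of 126 FPKM (92.6 to 180 FPKM), and its range overlapped that of Hdac11. The mitochondrial Sirt5 and Sirt3 followed at 77.9 and 43.0 FPKM, the nuclear Sirt1 stood at 6.13 FPKM, and Sirt4 was lowest at 3.58 FPKM. Acetyltransferases were led by Kat2a (GCN5) at 41.3 FPKM, with Kat5 (TIP60) at 27.1, Kat6a at 7.84 and Kat2b (PCAF), the lowest, at 4.80 FPKM.

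Among the methyltransferases, Setd8 led at a mean of 27.3 FPKM. The writers of active promoter marks Kmt2a (12.9 FPKM), Setd1a (12.2) and Setd1b (5.48) were lower, as was Setd2 (9.27), which places its mark along transcribed gene bodies. Setd7, a monomethyltransferase of histone and other proteins, had a mean of 14.1 FPKM, and the Kmt2 genes ran from Kmt2e at 21.4 to Kmt2b at 10.9 FPKM. The gene model of Kmt2c is only 1029 bases long, so its level rests on a short stretch of a long gene.

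Kdm1a (LSD1) was the highest demethylase at 21.6 FPKM. The X-linked Kdm5c and Kdm6a stood at 10.1 and 5.35 FPKM, the inflammation-inducible Kdm6b at 11.2 and Kdm7a at 2.68 FPKM, the last from 25 to 182 reads per library. Of the DNA enzymes, Dnmt3a, the de novo methyltransferase of neurons, had 10.3 FPKM, the maintenance enzyme Dnmt1 7.03, Tet2 5.30, Tet3 4.36 and Tet1 0.49 FPKM. Dnmt3b (0.35 FPKM), Dnmt3l, both Kdm4d genes and the second Hdac6 gene (ENSRNOG00000048738) were below a mean of 0.5 FPKM and were left out by that filter; 1 of the Kdm4d genes (ENSRNOG00000045905) had no read in any library.

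Expression was compared on log2(FPKM + 0.1) with limma in each pair of groups, over all genes with a mean of at least 0.5 FPKM. A gene was called when its unadjusted p was at most 0.05 and its fold change at least 1.3 in either direction, the thresholds of the study's pattern analysis. On this scale fold changes of low genes are understated. In the 6 treatment comparisons no gene of the transcriptome had an adjusted p under 0.05, either by limma on FPKM (637 to 1725 genes had an unadjusted p of at most 0.05) or by limma-voom on reads recovered from the FPKM (623 to 1751 genes). All calls below are therefore unadjusted calls, to be read against the share of all genes called.

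Most members differed little with treatment. Over the 6 comparisons the 58 members that could be tested gave 347 fold changes, of which 337 were under 1.3-fold, 12 had an unadjusted p of at most 0.05 and 3 were called; the shares were 97.1, 3.46 and 0.865%, against 86.6, 7.46 and 3.46% of the 90610 fold changes of all genes. The 3 calls came from 2 genes, Kdm7a and Setd7. In 53 of the 58 members all fold changes were under 1.3-fold. The exceptions were Hdac6, Kmt2a, Setd7, Kdm7a and Tet3. No Sirt, Kat or Dnmt gene left that range: the log2 fold changes were -0.32 to 0.15 for the 7 sirtuins, -0.26 to 0.12 for the 7 acetyltransferases and -0.13 to 0.13 for Dnmt1 and Dnmt3a. The plot of fold changes shows these narrow clouds.

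**Figure D2:**
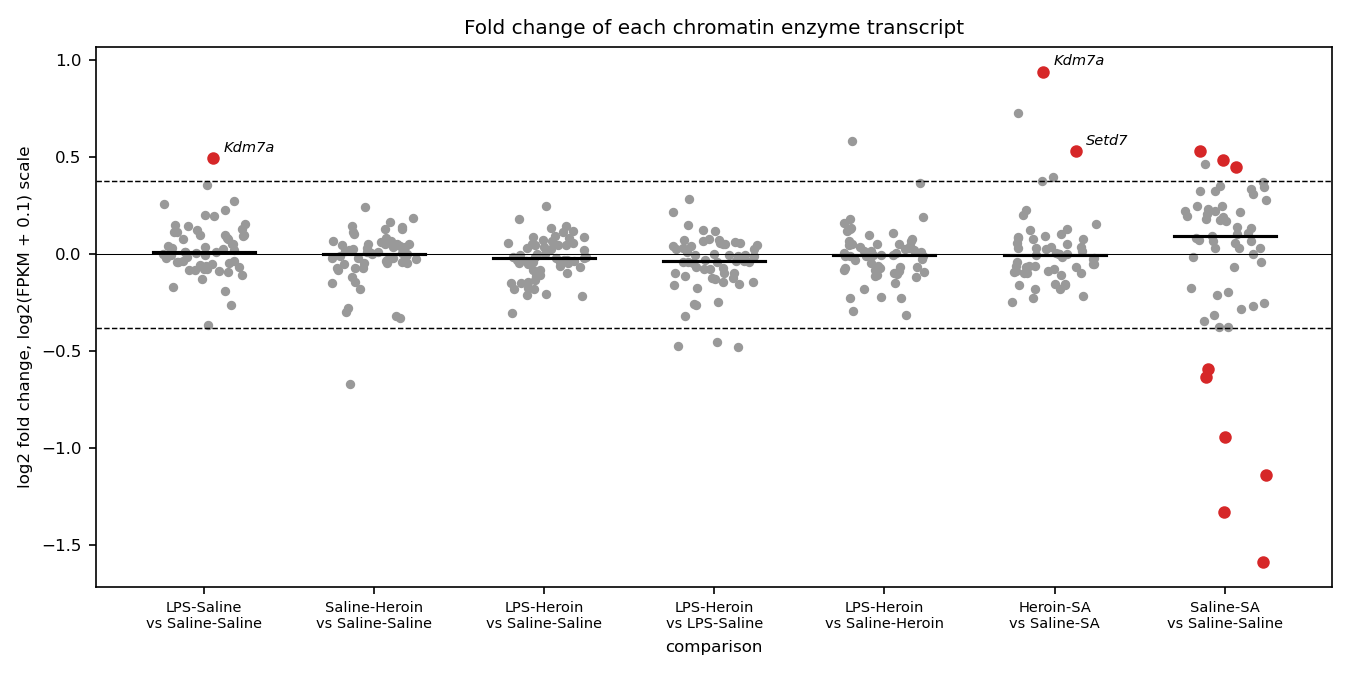
Log2 fold change on the log2(FPKM + 0.1) scale of each tested enzyme gene (1 point per gene) in the 6 treatment comparisons and in Saline-SA against Saline-Saline; red points met the call rule, short bars are medians over the members and dashed lines mark 1.3-fold. Treatment medians lie between -0.03 and 0.01, with 3 calls in 6 comparisons, while the comparison of the saline groups has 9 calls.

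Members also varied little between replicates. The median SD within groups was 0.12 on the log2 scale, against 0.20 over all genes with a mean of at least 0.5 FPKM, and it was 0.76 for Hdac6 and 0.34 for Kdm7a. The genes of this background were not matched to the members for length or level. Confidence intervals (95%) lay wholly within 1.3-fold for 34 of 57 to 42 of 58 members, against 34.8 to 47.6% of all genes. They lay within 1.5-fold for 49 to 53 members, against 59.6 to 67% of all genes. For the remaining members that were not called, the intervals reached past 1.3-fold, so a change of that size could not be set aside with 4 libraries per group.

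Of the panel of well known enzymes, Hdac2 had log2 fold changes between -0.01 and 0.15 over the 6 treatment comparisons, Hdac5 between -0.07 and 0.16 and Hdac11 between -0.15 and 0.04. Sirt1 lay between -0.32 and 0.11, Sirt3 between -0.09 and 0.07, Kat2a between -0.08 and 0.05, Kat2b between -0.26 and 0.08, Kat5 between -0.08 and -0.01 and Kat6a between -0.07 and 0.11. Setd1a stayed between -0.06 and 0.02, Setd2 between -0.15 and 0.04 and Setd8 between -0.18 and 0.20. Among the erasers and DNA enzymes, Kdm1a lay between -0.04 and 0.08, Kdm5c between -0.07 and 0.12, Tet1 between -0.32 and 0.37 and Tet2 between -0.09 and 0.07. None of the genes named in this paragraph had an unadjusted p of at most 0.05 in any of the 6 comparisons (limma), nor did Dnmt1, Dnmt3a, Hdac9, Kmt2a or Tet3.

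LPS history alone was examined by comparing LPS-Saline with Saline-Saline. Kdm7a (ENSRNOG00000052445, rn6 chromosome 4, 66922013 to 66955732, minus strand), a demethylase that removes repressive methyl groups from histone H3, was the single member called of 58, a share of 1.72% where 2.36% of 15119 genes were called and 1.21% were called higher. Its levels were 2.98, 2.74, 3.09 and 2.56 FPKM in the Saline-Saline libraries and 4.66, 3.74, 4.04 and 3.79 FPKM in the LPS-Saline libraries. All 4 LPS-Saline libraries lay above all 4 controls. The log2 fold change was 0.50 ± 0.12 (SE; limma, unadjusted p = 0.00322, Benjamini-Hochberg adjusted p = 0.661), and the exact permutation test gave p = 0.0286, the smallest that 4 against 4 libraries allow. The median log2 level of long minus short gene models was 0.02 to 0.10 in Saline-Saline and 0.03 to 0.20 in LPS-Saline, and its part in this difference was not tested.

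Setd7 (ENSRNOG00000013045, rn6 chromosome 2, 140576188 to 140618405, minus strand) and Hdac3, the catalytic subunit of nuclear receptor corepressor complexes, were also without overlap in this comparison, although their fold changes were below the threshold. Setd7 had 15.5, 15.1, 15.3 and 16.2 FPKM in Saline-Saline and 19.4, 16.3, 19.9 and 16.4 FPKM in LPS-Saline, a log2 difference of 0.20 ± 0.08. Hdac3 had 34.3 ± 1.48 and 37.4 ± 0.231 FPKM (SD, n = 4 each). Groups did not overlap for 3 members in all, where 4.11% of all genes had no overlap. Sirt2 was at 134 ± 18.6 FPKM in Saline-Saline and 112 ± 12.02 FPKM in LPS-Saline with overlapping libraries, a log2 difference of -0.26 (limma, unadjusted p = 0.043, adjusted p = 0.737). By limma 4 of 58 members, Sirt2 included, had an unadjusted p of at most 0.05, against 6.63% of all genes. The 8 oligodendrocyte markers had a median log2 fold change of -0.23, with 0 called. Their mean log2 level ran from 8.00 to 8.59 in Saline-Saline. In LPS-Saline it was 8.54 in replicate 1 and 7.97, 7.94 and 7.94 in replicates 2, 3 and 4. Its part in the Sirt2 difference was not tested.

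Injected heroin without LPS was examined by comparing Saline-Heroin with Saline-Saline, the same controls as above. By limma none of the 58 members was called, where 3.07% of 15143 genes were; 2 members had an unadjusted p of at most 0.05 (6.57% of all genes), and limma-voom on recovered reads also called none and had 3 such members. The 2 members were Kdm6b, a demethylase of a Polycomb mark, and Hdac8, a class I deacetylase, and both were lower in every Saline-Heroin library than in any control. Kdm6b had 11.01, 10.17, 12.54 and 13.49 FPKM in Saline-Saline and 9.53, 9.05, 10.08 and 9.54 FPKM in Saline-Heroin, a log2 difference of -0.30 ± 0.10. Hdac8 had 5.09, 5.44, 5.44 and 6.69 FPKM against 4.02, 4.71, 4.74 and 4.44 FPKM, a log2 difference of -0.33 ± 0.11. Adjusted p was 0.75 for both (limma), and groups did not overlap for 3.39% of all genes. The mean log2 level of 11 immediate early genes, which follow neuronal activity, ran from 4.12 to 4.98 in Saline-Saline and from 3.26 to 4.14 in Saline-Heroin, with 9 of them called lower, and its part in these differences was not tested. Cortical glutamatergic markers had a median log2 fold change of 0.72 and septal and ventral forebrain markers of -0.87. Of these, Mef2c was called higher and Gbx1 lower. Of 7 fibroblast and mural markers (median 0.71), Acta2 and Col1a1 were called higher. Opalin of 8 oligodendrocyte markers (median -0.36) and Cx3cr1 of 8 microglia markers (median -0.06) were called lower. The part of all these markers was not tested. Kdm7a was spread widely in Saline-Heroin, with 2.65, 3.55, 4.62 and 3.01 FPKM; its log2 difference from the controls was 0.25, with a 95% interval from -0.16 to 0.65.

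LPS-Heroin against Saline-Saline gave the most calls of the injection comparisons over all genes (5.42% of 15134), yet limma called none of the 58 members; 2 members had an unadjusted p of at most 0.05 (11.3% of all genes), and limma-voom also called none, with 4 such members. The 2 were Kmt2c, a methyltransferase of enhancers, and Kdm6a, a demethylase that acts in complex with it. Kmt2c had 12.9, 12.1, 14.8 and 13.6 FPKM in Saline-Saline and 10.7, 10.3, 12.1 and 10.2 FPKM in LPS-Heroin, with no overlap and a log2 difference of -0.30 ± 0.09. Kdm6a had 5.28, 4.33, 4.77 and 5.13 FPKM against 5.91, 5.91, 5.71 and 5.66 FPKM, again with no overlap, and a log2 difference of 0.25 ± 0.09. Neither passed adjustment (limma, adjusted p = 0.26 and 0.371), and 6.86% of all genes had no overlap. Markers of neighbouring regions moved in this comparison: 6 of 7 cortical glutamatergic markers were called higher (median log2 fold change 1.05; mean level 2.71 to 4.13 in Saline-Saline and 4.30 to 4.60 in LPS-Heroin) and 4 of 6 septal and ventral forebrain markers lower (median -1.28; 2.01 to 3.37 and 0.67 to 2.15). Their part in the Kmt2c and Kdm6a differences was not tested.

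LPS-Heroin was also set against each single treatment. Against LPS-Saline, limma called no member, where 2.29% of 15069 genes were called, and no member had an unadjusted p of at most 0.05 (4.6% of all genes); limma-voom called none and had 1 such member. Hdac3 alone had no overlap here (2.58% of all genes), at 35.8 ± 1.24 FPKM in LPS-Heroin and 37.4 ± 0.231 FPKM in LPS-Saline (SD, n = 4 each). Against Saline-Heroin it called no member, where 2.2% of 15121 genes were called, and 1 member, Kmt2c, had such a p (4.21% of all genes); 1 member had one also under limma-voom, without a call. Kmt2c was 13.2, 14.0, 12.9 and 12.8 FPKM in Saline-Heroin, above all 4 LPS-Heroin libraries (no overlap in 2.37% of all genes), a log2 difference of -0.29 ± 0.08 (limma, unadjusted p = 0.0045, adjusted p = 1.00).

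Libraries of the LPS-Heroin group disagreed for several members. Kdm7a stood at 3.88 and 3.68 FPKM in replicates 1 and 2 and at 1.80 and 2.66 FPKM in replicates 3 and 4. Kmt2a had 13.9 and 12.9 against 7.57 and 7.24 FPKM, and Tet3 6.24 and 5.28 against 3.02 and 2.60 FPKM, in the same order. Replicates 1 and 2 were thus higher for all 3 genes. The mean log2 level of the 57 members with at least 0.5 FPKM was also higher there, at 3.67 and 3.64 against 3.51 and 3.52 in replicates 3 and 4. The median log2 level of long gene models minus that of short ones was 0.16 and 0.19 in replicates 1 and 2 and 0.08 and 0.07 in replicates 3 and 4, and its part in these levels was not tested. Without LPS-Heroin replicate 1, 4 members were called lower against LPS-Saline: Kmt2a, Sirt1, Tet3 and Kdm7a; without replicate 2, these were Kmt2a and Kdm7a, and without replicate 3 Hdac6 was called higher. Without LPS-Saline replicate 2, Sirt1 was called lower, and without LPS-Saline replicate 4, Kmt2a and Kmt2c were. The 8 libraries left out in turn gave 0 to 4 calls in this comparison.

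**Figure D3:**
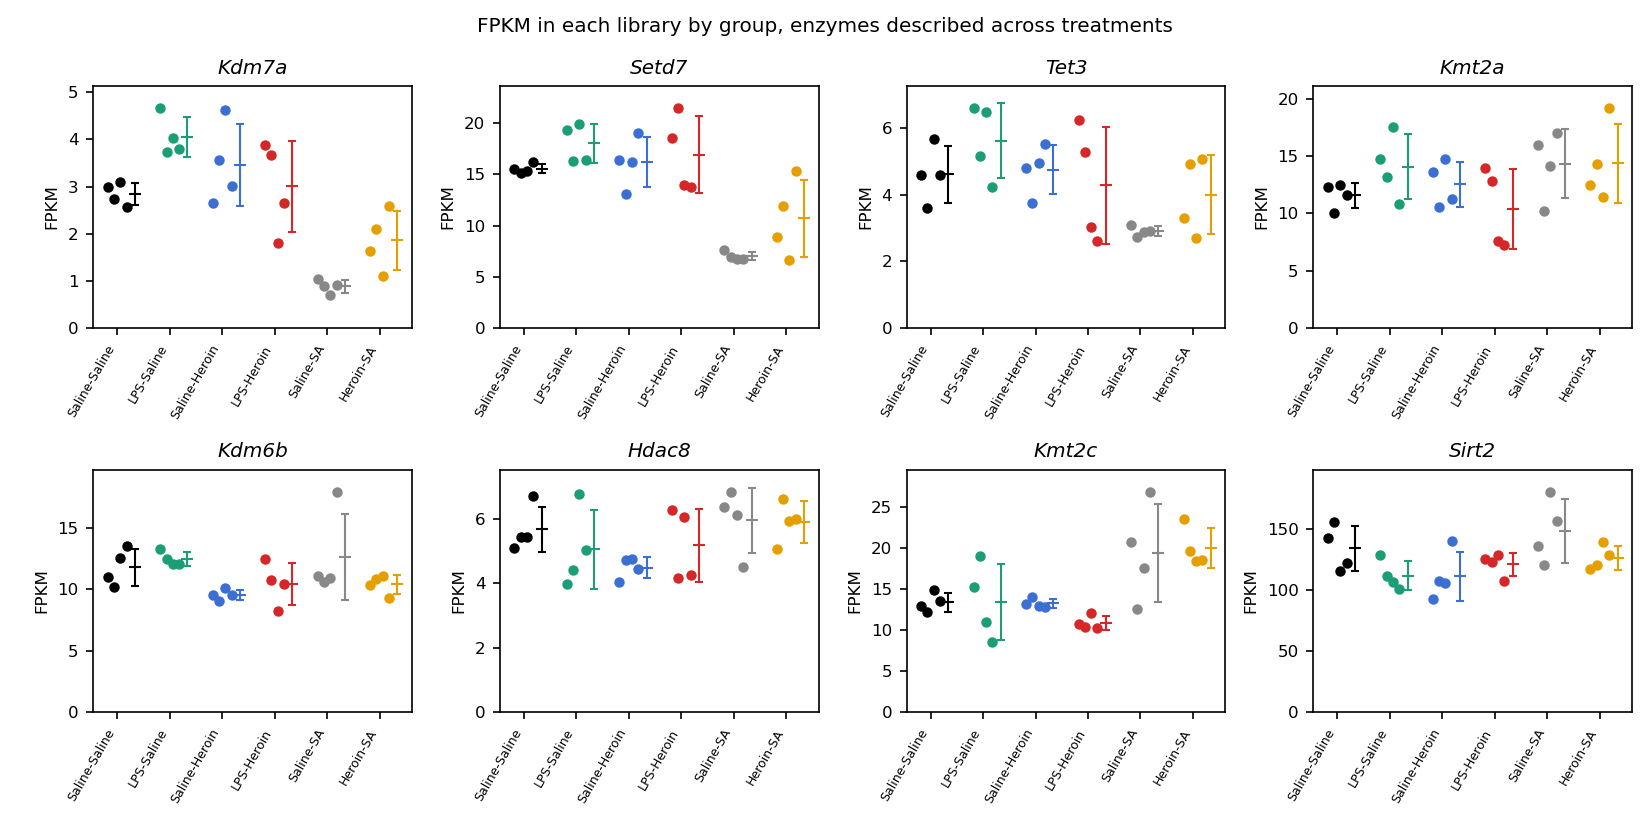
FPKM of 8 enzyme genes in each library, by group (points; linear axes from 0), with the group mean and SD beside the points. Kdm7a lies higher in all LPS-Saline than in all Saline-Saline libraries and higher in all Heroin-SA than in all Saline-SA libraries, and the LPS-Heroin points of Kdm7a, Tet3 and Kmt2a fall into a higher and a lower pair.

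Whether heroin differences depended on LPS history was tested by the interaction term of the 4 injection groups. It called 3 of 58 members (5.17%), where 2.31% of 15113 genes were called, and all had an adjusted p of 0.992 (limma). For Kdm7a the heroin difference was lower after LPS, with a log2 interaction of -0.72 ± 0.30 (SE; unadjusted p = 0.03): the group means were 2.84 FPKM in Saline-Saline, 3.46 in Saline-Heroin, 4.06 in LPS-Saline and 3.003 in LPS-Heroin. For Sirt2 it was 0.39 ± 0.17, with means of 134, 111, 112 and 121 FPKM in the same order. The 8 oligodendrocyte markers had a median log2 interaction of 0.38, with Opalin called higher, and their part in the Sirt2 interaction was not tested. For Hdac6 (ENSRNOG00000047281), a mainly cytoplasmic deacetylase of tubulin, the log2 interaction was 0.95 ± 0.44. This gene overlaps Pqbp1 on the same strand, so its reads are uncertain, and its libraries ran from 0.92 to 7.40 FPKM over the study. The Hdac6 call was lost with no filter on low values and with all groups in one fit. Leaving out 1 of 16 libraries ended the call of Kdm7a in 5 cases, of Sirt2 in 11 and of Hdac6 in 12.

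Heroin self-administration was examined by comparing Heroin-SA with Saline-SA. Both members called, Kdm7a and Setd7, were higher in Heroin-SA. They were 2 of 57 (3.51%), where 5.44% of 15024 genes were called and 3.03% were called higher. By limma 3 of 57 members had an unadjusted p of at most 0.05, against 11.5% of all genes. Kdm7a had 1.04, 0.88, 0.70 and 0.92 FPKM in Saline-SA and 1.64, 2.09, 1.11 and 2.58 FPKM in Heroin-SA. Every Heroin-SA library lay above every Saline-SA library (no overlap in 6.8% of all genes), from 25 to 47 reads in Saline-SA and 39 to 101 reads in Heroin-SA. The log2 fold change was 0.94 ± 0.29 (SE; limma, unadjusted p = 0.0092, adjusted p = 0.344), with an exact permutation p of 0.0286. Without Saline-SA replicates 3 and 4, which had the highest mitochondrial shares, the log2 fold change was 0.83 and neither gene was called (unadjusted p = 0.0549 for Kdm7a by limma).

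Setd7 had 7.63, 6.95, 6.78 and 6.79 FPKM in Saline-SA and 8.84, 11.9, 6.66 and 15.3 FPKM in Heroin-SA. The groups overlapped, since Heroin-SA replicate 3 was below all controls while replicate 4 was far above them. The log2 fold change was 0.53 ± 0.22 (SE; limma, unadjusted p = 0.0425, adjusted p = 0.412), the exact permutation p was 0.143, and 6 of the 8 fits that left out 1 library ended the call. Hdac4 was just below the fold threshold, at 3.35 ± 0.479 and 4.38 ± 0.672 FPKM (SD, n = 4 each), and was called without Saline-SA replicate 1 or Heroin-SA replicate 3, with a pseudocount of 0.01 and by limma-voom, which called 3 members in all; Tet3 was called without Heroin-SA replicate 3. Leaving out 1 library gave 1 to 4 calls. Setd4 was the other member without overlap and lay lower in Heroin-SA, at 9.68 to 10.63 FPKM against 10.64 to 12.38 FPKM in Saline-SA. Immediate early genes were lower in Heroin-SA (7 of 11 called; mean log2 level 3.18 to 3.94 against 3.995 to 4.19). Kdm7a, Setd7 and Tet3 were all higher in Heroin-SA replicates 2 and 4 than in replicates 1 and 3. So was the mean log2 level of the 57 members, at 3.66 and 3.71 against 3.57 and 3.55. The long minus short gene level was 0.13 and 0.14 against 0.09 and 0.07. The part of this level or of the immediate early genes was not tested. All 7 sirtuins had log2 differences below 0 in this comparison (-0.22 to -0.06), none with an unadjusted p of at most 0.05 by limma. Of all 57 members, 28 were higher and 29 lower. The same 7 sirtuins were above 0 in Saline-SA, the control group here, against Saline-Saline (0.14 to 0.47).

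The difference between the self-administered and the injected heroin effect was tested in 1 fit in which the 2 effects shared no library. It called Kdm7a alone of 57 members (1.75%), where 4.38% of 15151 genes were called, with a log2 difference of 0.70 ± 0.33 (limma, unadjusted p = 0.0494, adjusted p = 0.759) and a 95% interval that starts at 0.002. This call was at the threshold and was lost in 13 of the 16 fits that left out 1 library. Without Saline-SA replicates 3 and 4 the difference was 0.58 and Hdac6, not Kdm7a, was called. Kdm7a was thus higher with LPS in 1 comparison and higher with heroin in another, and its Saline-Heroin and LPS-Heroin libraries overlapped the Saline-Saline libraries.

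The largest differences of the enzymes were between the experiments and not between treatments. Saline-SA was set against Saline-Saline, a comparison chosen after the levels had been seen, which shares its control groups with comparisons above. Of 57 members, 9 were called (15.8%), 3 higher and 6 lower, where 22.7% of 15150 genes were called, 8.46% higher and 14.3% lower. An adjusted p under 0.05 was reached by 15 members (8 higher, 7 lower), where 23.7% of all genes did, and 22 members had no overlap, where 28.3% of all genes had none. Members were therefore not called more often than other genes. With equal library medians there were 10 higher and 5 lower calls and with quantile normalization 9 higher and 5 lower, so the balance of directions depended on the scaling; without Saline-SA replicate 2 there were 15 calls. With no filter on low values there were 11, the added ones being Tet1 and a Kdm4d gene (ENSRNOG00000024726), both lower.

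Lower in Saline-SA were the demethylase Kdm7a at 0.886 ± 0.142 against 2.84 ± 0.237 FPKM (SD, n = 4 each) and the methyltransferase Setd7 at 7.04 ± 0.401 against 15.6 ± 0.481 FPKM. Their log2 fold changes were -1.59 ± 0.18 and -1.14 ± 0.07 (SE; limma, adjusted p = 0.000756 and 7.49e-05). Of the class IIa deacetylases, Hdac4 (3.35 ± 0.479 against 5.06 ± 0.459 FPKM) and Hdac9 (0.575 ± 0.182 against 1.18 ± 0.238 FPKM) were called lower. Their log2 fold changes were -0.59 and -0.94, with limma adjusted p of 0.0156 and 0.0485. Tet3, which oxidises methylcytosine, had 2.91 ± 0.156 against 4.61 ± 0.849 FPKM, a log2 fold change of -0.63 (limma, adjusted p = 0.0168). None of these 5 genes overlapped between the 2 groups. Hdac6 was the sixth, with overlapping libraries and an adjusted p of 0.125 (limma). Hdac5, of the same class as Hdac4 and Hdac9, was not called and lay higher in Saline-SA, at 46.7 to 58.1 against 42.0 to 44.5 FPKM. Hdac7, not called either, lay lower, at 4.53 to 5.38 against 5.61 to 7.45 FPKM.

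Higher in Saline-SA were Dnmt3a, at 13.0 ± 1.68 against 8.93 ± 0.85 FPKM, and Kdm2b, a demethylase that binds CpG islands and belongs to a Polycomb complex, at 7.82 ± 0.873 against 5.67 ± 0.361 FPKM (SD, n = 4 each). Their log2 fold changes were 0.53 ± 0.11 and 0.45 ± 0.11 (SE; limma, adjusted p = 0.0118 and 0.0175), with no overlap between the groups. Kmt2c was the third, at 19.4 ± 5.97 against 13.3 ± 1.16 FPKM, with overlapping libraries and an adjusted p of 0.113 (limma); without Saline-SA replicates 3 and 4 its log2 fold change was 0.27 and it was not called. The other 8 of the 9 calls kept the same direction without these libraries.

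Across both experiments, 3 of 57 members (5.26%) had all 8 SA libraries on one side of all 16 injection libraries, where 7.18% of 15118 genes did. Kat2a, the acetyltransferase of SAGA-type complexes, ran from 36.3 to 40.9 FPKM in the injection libraries and from 41.7 to 50.1 FPKM in the SA libraries. Kdm2a, a demethylase that binds CpG islands, ran from 16.1 to 18.8 and from 19.4 to 26.4 FPKM. Hdac9 ran the other way, from 0.93 to 1.85 and from 0.45 to 0.84 FPKM. Hdac4, Dnmt3a and Kdm2b overlapped between the experiments, as the plot by library shows. Cell type markers also moved with the experiment. In Saline-SA against Saline-Saline, 7 of 12 medium spiny neuron markers were called higher (median log2 fold change 0.53), and 6 of 8 oligodendrocyte markers (-0.44), 3 of 4 oligodendrocyte precursor markers (-0.54) and 6 of 11 immediate early genes (-0.47) were called lower. The mean log2 level of 7 astrocyte markers was 6.28 to 6.69 in the injection libraries and 5.95 to 6.27 in the SA libraries, that of 8 microglia markers 3.61 to 4.13 and 3.33 to 3.66, and that of 6 endothelial markers 2.24 to 2.83 and 2.75 to 3.06. Their part in the enzyme differences was not tested.

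**Figure D4:**
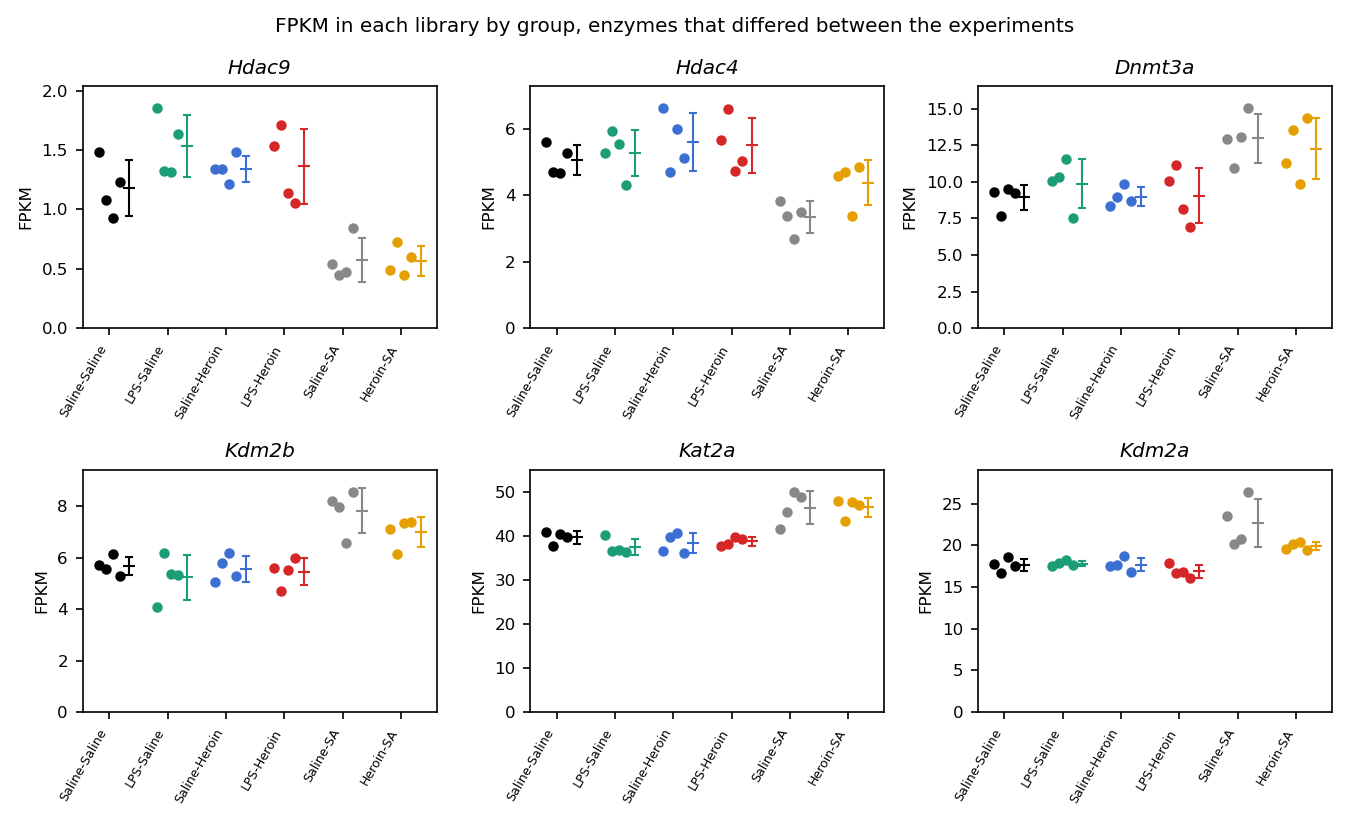
FPKM of 6 enzyme genes in each library, by group (points; linear axes from 0), with the group mean and SD beside the points. Both SA groups lie below the injection groups for Hdac9 and above them for Kat2a and Kdm2a, while Hdac4, Dnmt3a and Kdm2b overlap in some libraries.

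Other chromatin genes were counted for comparison from lists of 106 further methyltransferases, acetyltransferases, demethylases, complex subunits and readers, of which 92 or 93 were tested. In LPS-Saline against Saline-Saline 0 of them were called by limma (2.36% of all genes). LPS-Heroin against LPS-Saline and against Saline-Heroin also gave 0 calls (2.29 and 2.2% of all genes). Rcor2, a corepressor that binds Kdm1a, and Uhrf1, the factor that brings Dnmt1 to hemimethylated DNA, were the only ones called in Saline-Heroin against Saline-Saline (2.17%, against 3.07% of all genes), with log2 fold changes of 0.98 ± 0.37 and 0.79 ± 0.25 (SE). Both were also called, alone, in LPS-Heroin against the shared controls (2.15%, against 5.42%), at 1.08 ± 0.35 and 0.73 ± 0.28, and both were higher in Saline-SA, which had no heroin, against these controls, at 0.74 ± 0.21 and 1.20 ± 0.25. Their partners Kdm1a and Dnmt1 were not called in either comparison, and in the comparisons with heroin no adjusted p of Rcor2 or Uhrf1 was under 0.05 (limma, 0.288 to 0.75). In Heroin-SA against Saline-SA, Gadd45g, a protein linked to DNA demethylation, was the only one called (1.08%, against 5.44%) and was lower, with a log2 fold change of -0.40 ± 0.16. The interaction called Rcor1 (-0.53) alone of 93 (1.08%, against 2.31% of all genes). The self-administered minus injected effect called Eed (0.41), Ing2 (-0.42) and Uhrf1 (-1.02) of 93 (3.23%, against 4.38%). Saline-SA against Saline-Saline called 9 higher and 10 lower of 93 (20.4%, against 22.7%), with the acetyltransferase Crebbp at a log2 fold change of 0.79.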

How the data were processed

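Libraries of rat NAc RNA (4 in each of 6 groups, mapped to groups by their labels) were deposited as 1 table of FPKM per gene. The authors trimmed reads with fastp, aligned them to rn6 with HISAT2 and counted them with featureCounts, per the labels; versions are not given in the sources used here. The authors' FPKM multiplied by gene length and divided by 1 scaling factor per library gave whole reads within 0.01 for 100% of values, and these recovered reads served for depth and for limma-voom as an alternative. FPKM scale with gene model length and with the total of all genes, so a few highly expressed genes can shift the rest. R 4.3.3 and limma 3.58.1 were used: limma-trend on log2(FPKM + 0.1), genes with a mean of at least 0.5 FPKM over the fitted libraries, only the compared groups in each fit, Benjamini-Hochberg adjustment over all genes tested. Single members also had a two-sided exact permutation test. The study tested counts with DESeq2, which was not run here; limma on the deposited FPKM was the main test. The fits were tested on simulated data. The members and lists were chosen with earlier results of these data known. Named were a panel of 30 well known enzymes (26 of them tested in the injection fits), every called member, and the highest and lowest member of each family; Kdm6a, Kmt2c, Hdac8, Kdm2a and other members with an unadjusted p of at most 0.05 or without overlap, and other chromatin genes, were named after their values were seen. Alternatives were pseudocounts of 1 and 0.01, no filter or a mean of 1 FPKM, quantile normalization, equal medians, all 24 libraries in 1 fit, limma-voom, a replicate block and leaving out each library. Leaving out both Saline-SA libraries 3 and 4 and the comparison of the saline groups were added after seeing the data. The methods state more samples sequenced per group than the 4 analysed here.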

Additional observations from a re-analysis of the deposited data

Results flagged for a closer look

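Of 204 groups of 4 libraries tested for a library far from the rest, over 34 named members, 4 had one; chance alone marks about 1 in 20 groups. Dnmt3a was lowest in Saline-Saline replicate 2, at 7.66 FPKM against 9.25 to 9.50 FPKM in the other libraries. Kat2a was highest in LPS-Saline replicate 1, at 40.4 FPKM against 36.4 to 36.9 FPKM. Kdm6b was highest in Saline-SA replicate 4, at 17.9 FPKM against 10.6 to 11.1 FPKM. Setd1b was lowest in LPS-Saline replicate 4, at 4.64 FPKM against 6.32 to 6.61 FPKM.

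The unadjusted interaction test of LPS history and heroin on the log2 scale called Hdac6 (0.95), Kdm7a (-0.72) and Sirt2 (0.39). Of the 16 fits that left out 1 library, 12, 5 and 11 lost the call, in that order. The unadjusted test of the self-administered minus the injected heroin effect called Kdm7a (0.70 on the log2 scale), a call lost in 13 of 16 such fits. None of these passed adjustment over all genes in limma (adjusted p = 0.992 for the interactions and 0.759 for the last).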

How the results depend on the processing

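Kdm7a kept its call in LPS-Saline against Saline-Saline under every alternative run (log2 fold change 0.40 to 0.54), and in Heroin-SA against Saline-SA under all but the one without Saline-SA libraries 3 and 4, where 0 members were called. In LPS-Heroin against LPS-Saline 1 member was called with all groups in one fit (Kmt2a), and in LPS-Heroin against Saline-Heroin 1 with a replicate block (Hdac6). For the self-administered minus injected effect, 0 members were called with a pseudocount of 1, with no filter, with a filter at a mean of 1 FPKM and with the replicate block, and 2 with a pseudocount of 0.01 and with limma-voom (Kdm7a and Setd8). With these last settings Hdac4 was also called in Heroin-SA against Saline-SA. The interaction call of Hdac6 was lost with no filter and with all groups in one fit. In Saline-SA against Saline-Saline, 14 members were called with quantile normalization and 15 with equal medians. Leaving out 1 library gave 1 to 3 calls in LPS-Saline against Saline-Saline (3, with Kmt2a and Tet3, without LPS-Saline replicate 4, and 2, with Hdac6, without Saline-Saline replicate 4), 0 to 1 in Saline-Heroin and in LPS-Heroin against Saline-Saline, 0 to 4 in LPS-Heroin against LPS-Saline, 0 to 1 in LPS-Heroin against Saline-Heroin, 1 to 4 in Heroin-SA against Saline-SA, 1 to 3 for the interaction, 0 to 3 for the self-administered minus injected effect and 9 to 15 in Saline-SA against Saline-Saline. No called fold change of a named member changed sign under these alternatives, although the balance of higher and lower calls in Saline-SA against Saline-Saline did, as given above. Same-numbered libraries did not deviate together (correlations -0.13 to 0.17, 4 of 28 over 0.1, 10 of 28 libraries closest to their own number), so the numbers were not taken as pairs; other than in the counts above, the replicate block ended the calls of the Sirt2 interaction and of Hdac6 in Saline-SA against Saline-Saline. The cause of these changes was not tested. With 25 to 47 reads of Kdm7a per Saline-SA library, counting error limits its fold change.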
